A study of Homo sapiens with 12 samples.

Results

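The response to transfected poly I:C was described in NS-SV-AC cells that had been given only the vehicle DMSO. Its material is 4 RNA libraries, 2 from cells transfected with poly I:C and 2 from cells transfected with the control named depc. Genes were chosen by level: those that reached a TPM of 1 in 2 or more of these 4 libraries, which held for 14859 of the 60609 annotated genes. TPM is an abundance per transcript length, scaled so that it sums to the same total in every library. The fold change was not used in the choice, but the same 4 libraries were: 137 genes were under that level in both depc libraries and entered only through poly I:C, and 339 entered only through depc. Of the former 29 were called higher and of the latter 22 lower, and counts and medians over lists include such genes. IFI27, OAS2, OASL, MX2, IFIT2, RSAD2, CXCL10, CCL5, IL6 and IFNL1, named below, are among those 29.

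NS-SV-AC is an established human cell line from salivary gland acini, the units that secrete saliva, and was immortalised with an SV40 construct. The series concerns double-stranded RNA of mitochondria in Sjögren's syndrome, an autoimmune disease of exocrine glands. All 12 libraries of the series come from this line, and the other 8, given 2-CM or RES in place of DMSO alone, entered the estimate of spread, the choice of the genes tested and so the adjustment of p-values. In both groups DMSO was added 24 h before transfection and again with it, and cells were grown for 48 h. The poly I:C group then received poly I:C, which is double-stranded RNA made by synthesis, for 14 h, and the other group received depc. Polyadenylated RNA was sequenced as paired reads. The labels number the replicates but do not say whether they are separate cultures, so p-values measure the spread between these libraries, which may be technical.

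Double-stranded RNA in the cytosol is bound by the helicases RIG-I and MDA5, which signal through MAVS on mitochondria to the kinases TBK1 and IKKε and the factors IRF3 and NF-kB. Type I and type III interferons are then made and act back on the cells through JAK kinases. The complex that holds STAT2 and IRF9 binds interferon-stimulated response elements, short paired GAAA repeats, in the promoters of antiviral genes. Salivary epithelium with raised expression of such genes is a known feature of Sjögren's syndrome.

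Between 3.61 and 4.64 gigabases of reads lay on annotated transcripts in each library, and 13438 to 15165 genes reached a TPM of 1. The second poly I:C library was the shallowest and held the fewest such genes. Replicates differed in spread: between the depc libraries 372 genes were at least 1 apart in log2(TPM + 1), and between the poly I:C libraries 3582. Mitochondrially encoded genes took 29.1% and 30.7% of TPM in the depc libraries and 29.96% and 34.2% in the poly I:C libraries. Of 6 epithelial markers, KRT8 and KRT18 were abundant, while KRT19 was listed at 0 and EPCAM, CDH1 and KRT7 lay under a TPM of 1 in every library. Of 11 acinar markers only SLC12A2 reached a TPM of 1 in all 4 libraries, and AQP5, MUC7, AMY1A, STATH, HTN3 and PIP were listed at 0. The summed acinar level was 5.26 to 7.22 TPM with depc and 1.87 to 4.79 TPM with poly I:C, mostly from SLC12A2. SLC12A2 itself had 6.51 and 3.83 TPM with depc and 4.21 and 1.30 TPM with poly I:C, and these groups overlap. Of 7 fibroblast markers, COL1A1, COL3A1, LUM, DCN and PDGFRB were at 1 TPM or more in all 4 libraries, COL1A2 was listed at 0 and PDGFRA lay at or near 0, with sums of 129.5 to 143.7 TPM with depc and 51.1 to 85.1 TPM with poly I:C. PTPRC, CD3E and MS4A1 of the 7 leukocyte markers were listed at 0, as was CDH5 of the 4 endothelial markers. Leukocyte markers summed to 10.2 to 11.5 TPM with depc and 12.2 to 14.4 TPM with poly I:C, nearly all from CD14 and CD68, and endothelial markers to at most 2.00 TPM in any library. The libraries held KRT8 and KRT18, but of the listed acinar markers only SLC12A2 throughout.

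With poly I:C interferon-induced genes rose by large factors, and other genes, among them many of matrix and cytoskeleton, fell by smaller ones. The numbers depended on the scaling of the libraries. More genes fell than rose with TPM and with estimated reads as CPM. With FPKM, upper-quartile and median-of-ratios scaling more rose than fell. Among the 14859 genes, 132 were called higher, which is 0.888%, and 563 were called lower, which is 3.79%. The 695 calls in all are 4.68% of the genes, and counts called in the lists below are to be read beside these shares. A call was a Benjamini-Hochberg adjusted p under 0.05 in limma, fitted to log2(TPM + 1) of all 12 libraries of the series over 17185 genes. Log2 fold changes below are poly I:C minus depc on that scale, given with their SE, and they understate the change of genes with low TPM. The median of all 14859 genes was -0.15, and -0.02 when libraries were scaled by the median of gene ratios, and changes are to be read relative to that shift. In bulk RNA, fewer cells of a type and less of an RNA per cell cannot be told apart.

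The sizes of the 2 directions differed. Rises reached a log2 fold change of 6.38, and the median over the 132 was 1.38. Among the genes called, falls reached -2.64, with a median over the 563 of -1.05. The lowest value of all genes described was -4.62, in a gene that was not called. Of the genes called higher, 109 were protein-coding and 16 were long non-coding RNAs, against 550 and 6 of those called lower. A log2 value of 1 or more in size was reached by 109 of the 132 rises and 335 of the 563 falls.

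**Figure D1:**
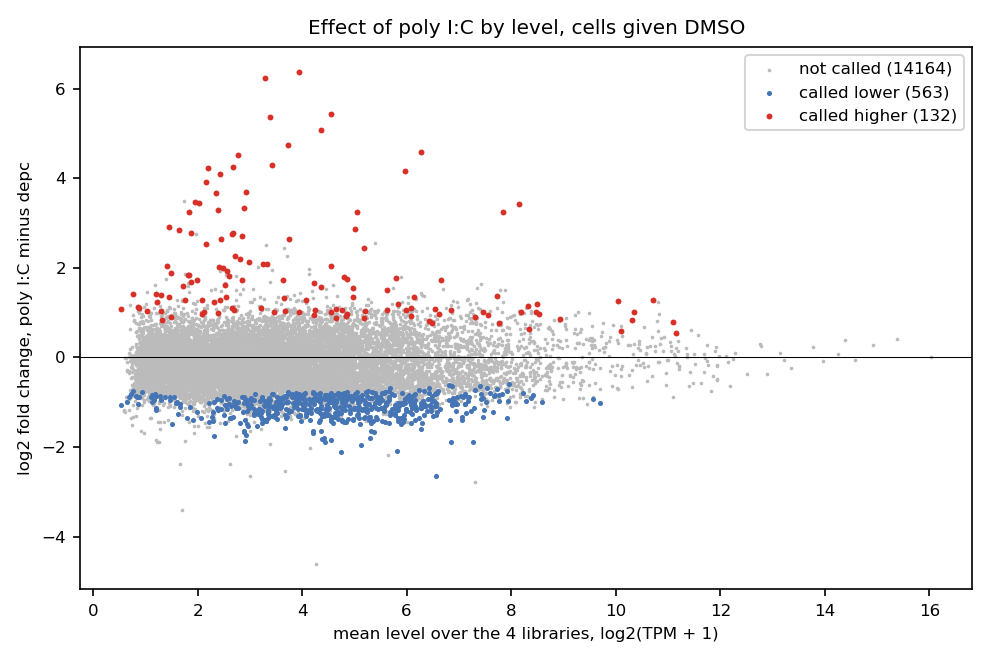
Each point is a gene, with its mean level over the 4 libraries on the x axis, as log2(TPM + 1), and its log2 fold change on the y axis, red where called higher (132 genes), blue where called lower (563) and grey where not called (14164). Red points reach 6.38 and are found at low and high levels, while the blue points form a band that ends at -2.64.

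Promoter sequences were set beside the calls. RefSeq promoters of build GRCh38.p14, from 250 bases before to 50 bases after a gene's start, were matched to 10435 of the 14859 genes. They were searched for the motif GAAANNGAAA, or TTTCNNTTTC where it lies on the opposite strand, the core of the interferon-stimulated response element. It was found in 404 of the 10435 promoters, which is 3.87%, and in 3.57% of all 35116 promoters of the reference. Of the genes called higher, 28 of 95 with a promoter held it, or 29.5%. Of the genes called lower, 13 of 447 held it, or 2.91%. A match describes the letters and shows no binding. The windows below are 50 bases each, written 5′ to 3′ along the gene, with the motif in capitals, and were taken as examples for a sensor, an interferon, a chemokine, the ubiquitin-like ISG15 and antiviral effectors.
IFIH1, chr2:162318814-162318863, minus strand: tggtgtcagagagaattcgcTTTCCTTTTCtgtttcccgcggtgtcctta
IFNL1, chr19:39296173-39296222, plus strand: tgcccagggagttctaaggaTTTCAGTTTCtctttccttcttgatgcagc
CXCL10, chr4:76023689-76023738, minus strand: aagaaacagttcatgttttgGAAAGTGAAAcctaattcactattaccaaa
ISG15, chr1:1013364-1013413, plus strand: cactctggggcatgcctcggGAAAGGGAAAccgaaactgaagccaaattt
IFIT1, chr10:89392487-89392536, plus strand: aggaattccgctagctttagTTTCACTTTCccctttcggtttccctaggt
MX1, chr21:41431834-41431883, plus strand: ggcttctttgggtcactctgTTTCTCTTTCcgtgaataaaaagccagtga
OAS3, chr12:112938311-112938360, plus strand: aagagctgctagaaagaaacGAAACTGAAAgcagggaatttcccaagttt
IFI27, chr14:94110621-94110670, plus strand: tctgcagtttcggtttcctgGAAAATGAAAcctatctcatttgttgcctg
In these 8 genes the motif began 95 (IFI27) to 221 (CXCL10) bases before a RefSeq start, and they were picked among genes called higher.

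Sensors of double-stranded RNA rose in part. Of 15 listed sensors and adaptors 14 were measured, 4 rose and none fell, with a median log2 fold change of 0.56. DDX58, which encodes RIG-I, had 1.79 and 0.953 TPM with depc and 39.6 and 12.9 TPM with poly I:C. Its poly I:C libraries lie far apart, yet both are above the depc libraries, and it rose by 3.34 ± 0.67 (SE, adjusted p = 0.0365). IFIH1, which encodes MDA5, rose by 2.26 (adjusted p = 0.038), from 2.55 and 1.53 TPM to 18.6 and 9.52 TPM. DHX58, the third RIG-I-like helicase, rose by 2.13 (adjusted p = 0.00416) and TRIM25, a ubiquitin ligase that acts on RIG-I, by 1.502 (adjusted p = 0.0106). All 4 were also called under 4 other scalings of the libraries, but 0 to 1 sensor was called without 1 of the 4 DMSO libraries and 0 with those 4 alone, and without 1 library the list median ranged from 0.14 to 1.13.

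The adaptors and kinases downstream of the helicases were not called. MAVS, the mitochondrial adaptor, had 21.6 and 19.2 TPM with depc and 12.1 and 12.003 TPM with poly I:C, a log2 fold change of -0.72 (adjusted p = 0.0685). After correction of each library for transcript length that value was 0.03, and after correction for GC content it was -0.58 (adjusted p = 0.0104). Its dominant transcript, ENST00000428216.4, is 11731 bases long and held 93.2% to 98.0% of the gene's TPM in every library. TBK1 and IKBKE, the kinases that act on IRF3, had log2 fold changes of 0.11 and -0.33. EIF2AK2, the kinase PKR that halts translation, had 8.85 and 5.02 TPM with depc and 20.5 and 8.27 TPM with poly I:C. These groups overlap, and its log2 fold change of 0.87 was not called (adjusted p = 0.502). TLR3, the endosomal sensor, stood at 1.46 and 0.80 TPM with depc and 4.03 and 1.06 TPM with poly I:C, also overlapping. ZBP1, a sensor of left-handed double helices, was below the level set for inclusion, with 0 in both depc libraries against 1.19 and 0.547 TPM in the poly I:C libraries.

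IFNL1, a type III interferon that acts mainly on epithelia, was the 1 of 11 listed interferons that passed the level set for inclusion. It had 0 and 0.342 TPM with depc and 9.89 and 14.1 TPM with poly I:C, and rose by 3.47 ± 0.32 (SE, adjusted p = 0.00172). Since it entered the description only through the poly I:C libraries, its call says nothing of the 10 interferons that did not enter, and it was not called in the authors' deposited table (adjusted p = 0.156). IFNB1, the type I interferon first made by most cells, was listed at 0 in both depc libraries, and poly I:C libraries gave 2.91 and 0.933 TPM, from 80.4 and 22.4 estimated reads. IFNL2 and IFNL3, near-identical copies that share reads, were at 0 with depc and at 0.477 to 1.63 TPM with poly I:C. IFNE had 0.379 and 0.285 TPM with depc and 0.0274 and 0 TPM with poly I:C, and IFNK had 0.131 and 0.0581 TPM with depc and was listed at 0 with poly I:C, both from few reads. IFNA1, IFNA2, IFNW1 and IFNG were listed at 0 in all 4 libraries. Of the 9 receptor chains and JAK kinases none rose and 1 fell. TYK2, a kinase of type I and III receptors, fell by 0.90 (adjusted p = 0.0414) but was not called under any other scaling. IFNAR1 had a log2 fold change of -0.30 and IFNLR1, the specific chain of the type III receptor, one of -0.07, neither called.

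Of the transcription factors that carry the interferon signal, 12 of 15 were measured, 3 rose and none fell, against 1 to 2 rises without 1 of the 4 DMSO libraries and 0 with those 4 alone. IRF9, the DNA-binding part of the complex with STAT2, had 1.43 and 1.44 TPM with depc and 38.2 and 57.1 TPM with poly I:C, and rose by 4.29 ± 0.25 (SE, adjusted p = 0.000137). IRF7, which amplifies interferon production, rose by 2.64 (adjusted p = 0.00829), from 4.25 and 4.60 TPM to 26.2 and 40.9 TPM. STAT2 rose by 1.07 (adjusted p = 0.0224) from a higher start of 34.6 and 31.4 TPM. IRF3, which is activated by phosphorylation and not by new mRNA, had 184 and 214 TPM with depc and 117 and 139 TPM with poly I:C and was not called (log2 fold change -0.63, adjusted p = 0.137). It overlaps BCL2L12, so its reads are uncertain. IRF1 had a log2 fold change of 0.74 (adjusted p = 0.0778).

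The 2′,5′-oligoadenylate synthetases bind double-stranded RNA and make the messenger that switches on RNA decay. With their relative OASL they held 3 of the 4 largest called rises on the log2(TPM + 1) scale. OAS2 and OASL, like IFI27, entered the description only through poly I:C. OAS2 had 0.0575 and 0.208 TPM with depc and 93.7 and 76.2 TPM with poly I:C, and rose by 6.24 ± 0.30 (SE, adjusted p = 3.53e-05). OAS1 had 2.49 and 2.71 TPM with depc and 153 and 155 TPM with poly I:C, and rose by 5.43 ± 0.19 (SE, adjusted p = 1.05e-05). Its poly I:C libraries were nearly equal and both far above depc. OAS3 started higher, at 14.9 and 14.0 TPM, reached 85.8 and 81.2 TPM and rose by 2.45 (adjusted p = 0.000475). These 3 genes lie side by side on chromosome 12 of GRCh38, OAS1 at 112906783 to 112933222, OAS3 at 112938444 to 112973251 and OAS2 at 112978395 to 113011723. OASL, a relative without synthetase activity at 121019111 to 121039242 of chromosome 12, had 0.729 and 0.544 TPM with depc and 56.4 and 78.8 TPM with poly I:C, and rose by 5.37. The calls of the 4 OAS genes held without each of the 4 DMSO libraries in turn and under all 4 other scalings.

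Of 32 antiviral effectors 23 rose and none fell, with a median log2 fold change of 2.64. Without 1 of the 4 DMSO libraries 6 to 14 were called, and with those 4 alone 3. Together their mRNAs summed to 1992 and 2168 TPM with depc and to 5062 and 5948 TPM with poly I:C. IFI27 is a small mitochondrial and nuclear membrane protein (ENSG00000165949.12, chromosome 14, 94104836 to 94116698). It had the largest rise of all genes called on the log2(TPM + 1) scale. It had 0.619 and 0.752 TPM with depc and 114 and 170.1 TPM with poly I:C, and rose by 6.38 ± 0.24 (SE, adjusted p = 1.05e-05). OAS2 was above IFI27 with estimated reads as CPM, at 7.51 against 5.58, and in the authors' deposited table, at 9.47 against 7.20. IFI27 was above OAS2 with FPKM, upper-quartile and median-of-ratios scaling. MX1, a GTPase that blocks viral replication, had 13.97 and 13.8 TPM with depc and 271 and 259 TPM with poly I:C, and rose by 4.16 (adjusted p = 0.000137). Its neighbour MX2 on chromosome 21 rose by 4.51 (adjusted p = 0.00108), from 0.704 and 0.187 TPM to 35.3 and 28.0 TPM. In IFI27, MX1 and MX2 both poly I:C libraries stood far above both depc libraries. Groups without overlap were also found in all 132 genes called higher, and upward in 11.5% of the 14859 genes.

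The IFIT genes, whose proteins bind viral RNA ends, lie in a cluster on chromosome 10. IFIT3 had 2.99 and 2.097 TPM with depc and 178 and 78.4 TPM with poly I:C, and rose by 5.09 (adjusted p = 0.0059). IFIT1 rose by 4.75 (adjusted p = 0.00607), from 2.06 and 1.16 TPM to 97.5 and 47.7 TPM. IFIT2 rose by 4.24 (adjusted p = 0.0089), and its reads are uncertain because it overlaps LIPA. In all 3 genes the first poly I:C library was above the second. Both were above the depc libraries, as they were in each of the 132 genes called higher. IFIT5 had 5.11 and 2.19 TPM with depc and 29.7 and 9.48 TPM with poly I:C, and with this spread its log2 fold change of 2.02 was not called (adjusted p = 0.155). RSAD2, the enzyme viperin, and CMPK2, which overlap each other, rose by 4.23 and 3.70. IFITM1, which restricts viral entry, had 13.7 and 15.9 TPM with depc and 332 and 435 TPM with poly I:C, and rose by 4.59. IFITM3 was abundant before poly I:C, at 643 and 727 TPM, and rose by 1.25 to 1390.3 and 1917 TPM. IFITM genes are close copies of one another, and their split of reads is uncertain. The call of IFITM3 held under 1 of the 4 other scalings. BST2, the tether of budding virus, rose by 1.19, while SHISA5 and LGALS3BP of the same list had log2 fold changes of 0.15 and -0.11 and were not called.

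**Figure D2:**
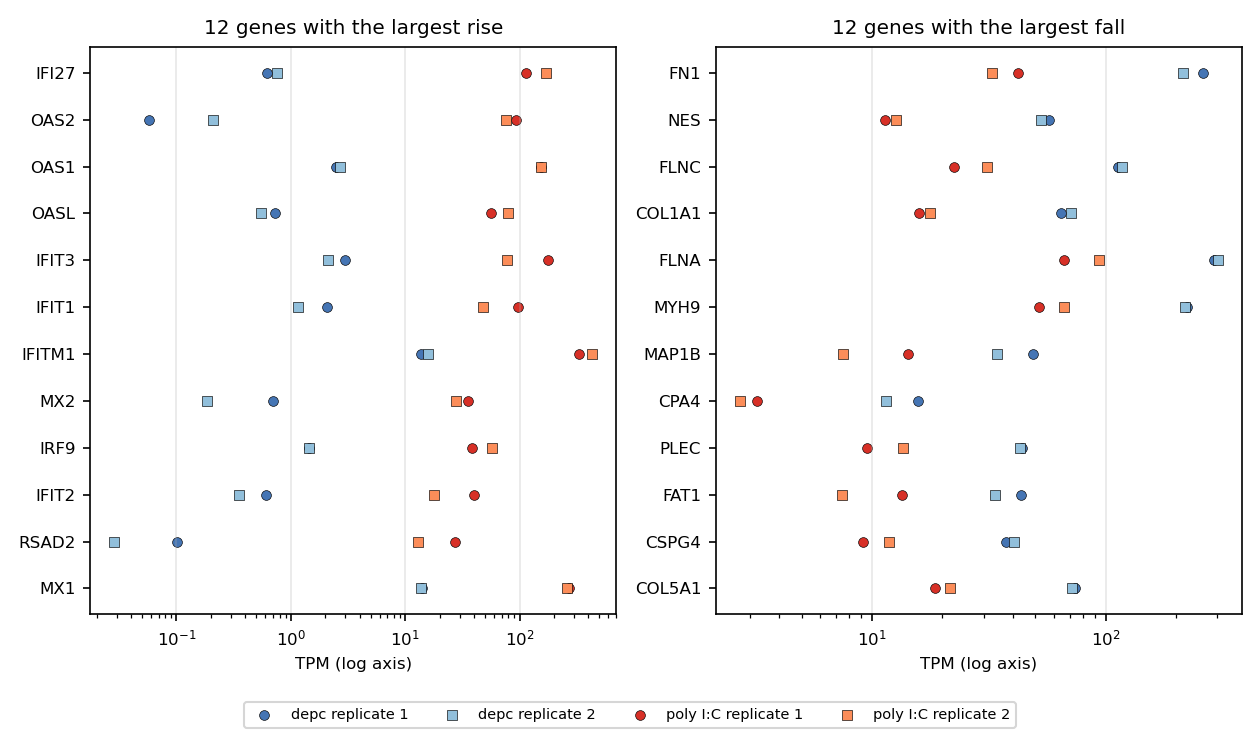
TPM in each of the 4 libraries (x axis, log scale) for the 12 genes with the largest called rise and the 12 with the largest called fall, each with a mean of 5 TPM or more in its higher group. Blue marks are depc and red or orange marks are poly I:C, circles replicate 1 and squares replicate 2. Genes were picked among those without overlap. On the log2(TPM + 1) scale the largest rise is that of IFI27 and the largest fall that of FN1.

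ISG15, a ubiquitin-like protein, was listed with the enzymes that attach and remove it, and 5 of these 7 genes rose, with a list median of 1.502. Leaving out 1 of the 4 DMSO libraries left 2 to 4 calls, and those 4 alone gave 0. ISG15 had 73.8 and 98.5 TPM with depc and 757 and 1148.5 TPM with poly I:C, and rose by 3.44 ± 0.30 (SE, adjusted p = 0.00144). USP18, which removes ISG15 and damps interferon receptors, rose by 3.25 (adjusted p = 0.00154). HERC5, the main ligase, rose by 2.72, and UBE2L6, the conjugating enzyme, by 1.38. UBA7, the activating enzyme, had 14.8 and 18.4 TPM with depc and 21.8 and 26.1 TPM with poly I:C, a log2 fold change of 0.51 that was not called.

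Antiviral PARPs and nuclear body genes had a median of 1.69, with 3 of 11 called. Whichever DMSO library was left out, 1 call remained and the median lay between 1.10 and 1.83, and the 4 libraries alone gave 0 calls. PARP12, SP110 and TRIM21 rose by 1.75, 2.09 and 1.80. PARP9, which partners DTX3L in ubiquitin transfer, had 5.88 and 3.23 TPM with depc and 46.0 and 17.2 TPM with poly I:C, and its log2 fold change of 2.44 was not called (adjusted p = 0.0545). All 11 genes were higher in both poly I:C libraries than in both depc libraries, a pattern found upward in 11.5% and downward in 34.3% of the 14859 genes. Of 7 measured guanylate-binding and APOL genes APOL2 rose by 0.87 (adjusted p = 0.0499), a call lost under all 4 other scalings and whichever DMSO library was left out, and GBP1 at 1.94 and APOL6 at 1.501 were not called. GBP4 and GBP5 were below the level set for inclusion, each at most 0.070 TPM with depc, and the poly I:C libraries held 1.15 and 0.791 TPM of GBP4 and 0.671 and 0.259 TPM of GBP5.

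Among chemokines and ligands tied to interferon, 3 of 9 measured genes rose and 1 fell, against 1 to 2 rises and 0 falls without 1 of the 4 DMSO libraries and no call with those 4 alone. CXCL10, which draws T cells, had 0.585 and 0.299 TPM with depc and 28.4 and 10.3 TPM with poly I:C, and rose by 3.67 ± 0.50 (SE, adjusted p = 0.0114). CCL5, another T cell chemokine, had 0.63 and 0.717 TPM with depc and 13.5 and 17.8 TPM with poly I:C, and rose by 3.30 ± 0.26 (SE, adjusted p = 0.00108). TNFSF10, the death ligand TRAIL, rose by 2.65 (adjusted p = 0.0435). CXCL11 had a log2 fold change of 1.46 and was not called, and CXCL9 was at or near 0 in all 4 libraries. CX3CL1, a membrane-bound chemokine, fell by 1.08 (adjusted p = 0.046) and was not called under any other scaling. TNFSF13B, the B cell survival factor BAFF, was under the level set for inclusion, at 0.0346 and 0.0787 TPM with depc and 1.12 and 0.671 TPM with poly I:C.

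Of 28 listed NF-kB-linked cytokines and inhibitors 18 were measured, 3 rose and none fell, and their median was 0.12. Without 1 of the 4 DMSO libraries none of them was called, and the median ranged from -0.16 to 0.25. IL6 had 0.288 and 0.328 TPM with depc and 6.05 and 3.10 TPM with poly I:C, and rose by 2.04 (adjusted p = 0.0264). CXCL2, a neutrophil chemokine, rose by 1.69 (adjusted p = 0.0385), and NFKBIA, the inhibitor that closes the NF-kB loop, rose by 1.11 (adjusted p = 0.0385) from 53.7 and 37.8 TPM to 106 and 92.1 TPM. TNF was listed at 0 in all 4 libraries, and CXCL8 was under 1 TPM in each. ICAM1 and NFKB2 had log2 fold changes of -0.65 and -0.64 and were not called. SOCS3, which restrains cytokine receptors, rose by 1.24 (adjusted p = 0.0371) and was not called under the other scalings, while SOCS1 had 13.0 and 14.9 TPM with depc and 27.5 and 36.9 TPM with poly I:C (log2 fold change 1.14, adjusted p = 0.0728). FOS, an immediate early gene, rose by 1.93 (adjusted p = 0.0264), the only 1 of 15 measured in its list.

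No listed gene of antigen presentation or cell death was called before GC correction, and the death ligand TNFSF10, called above, is in another list. None of 20 measured class I genes passed the threshold, with 11 of them having groups that did not overlap, against 45.8% of all genes. B2M, the shared light chain, had 176 and 109 TPM with depc and 605 and 262 TPM with poly I:C, and its log2 fold change of 1.51 came with an adjusted p of 0.179. HLA-B had a log2 fold change of 0.85 and TAP1, a peptide transporter, one of 0.68. Reads of HLA-B can be split between near copies. Of 24 measured cell death genes none was called, with a median of 0.32, among them FAS at 1.01 and BBC3 at 0.58. With GC correction, described below, 5 class I genes and 3 cell death genes were called higher, and 1 class I gene lower. Of all 14859 genes 7.22% were then called higher and 10.7% lower.

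**Figure D3:**
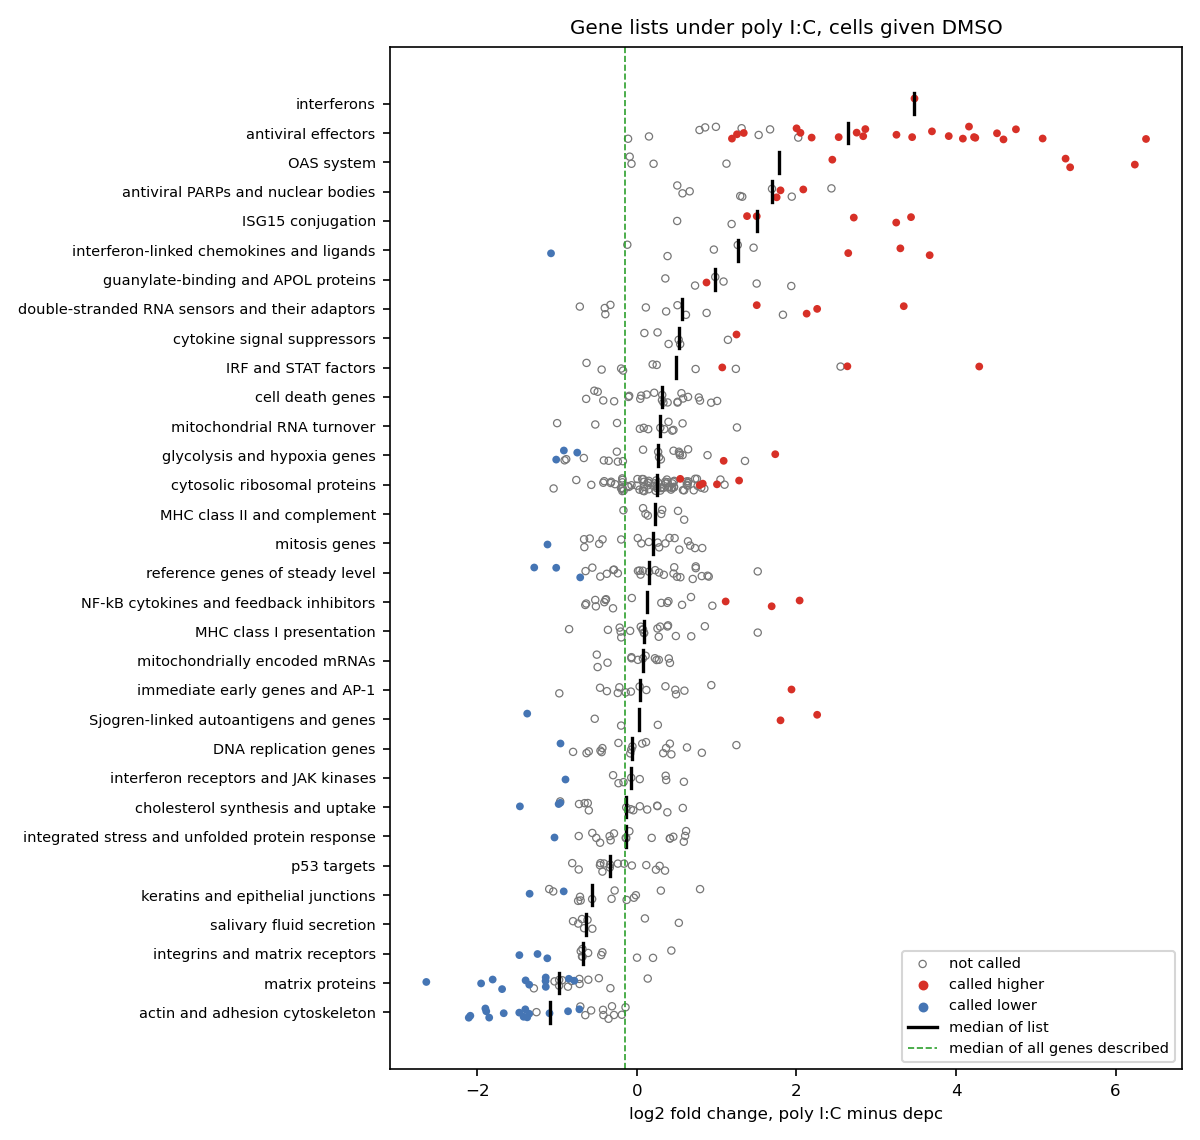
Each point is a measured gene of one of 32 lists, placed by its log2 fold change, filled red where called higher, blue where called lower and open where not called, with the list's median as a black bar and the median of all 14859 genes as a dashed line. Effectors and OAS genes have medians of 2.64 and 1.79, the interferon row is the single gene IFNL1, which entered only through poly I:C, and cytoskeleton and matrix lists have medians of -1.09 and -0.97.

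Transcript shares within 4 genes of the pathway are given as description, with no test, since the authors' software divided reads between overlapping transcripts. ADAR, which edits double-stranded RNA, was not called as a gene, at 64.6 and 54.8 TPM with depc and 78.4 and 75.7 TPM with poly I:C (log2 fold change 0.37, adjusted p = 0.357). Within it ENST00000368474.9, the transcript of the interferon-inducible p150 form, held 4.17% and 1.57% of the gene's TPM with depc and 15.2% and 35.2% with poly I:C. ENST00000368471.8, which encodes the shorter constitutive form, held 68.03% and 72.4% with depc and 52.7% and 40.4% with poly I:C. ENST00000529168.2, another transcript, held 8.77% and 8.77% with depc and 23.9% and 12.6% with poly I:C. Shares of 1 gene depend on each other: the TPM of ENST00000368471.8 itself overlapped between groups, at 43.9 and 39.7 with depc and 41.3 and 30.6 with poly I:C. In OAS1, ENST00000202917.10 held 36.3% and 46.9% with depc and 60.1% and 55.7% with poly I:C, on a depc level of only 2.49 and 2.71 TPM. IFIH1 had a single dominant transcript, with 84.9% to 93.9% of its TPM.

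The largest falls held genes of the extracellular matrix and the actin cytoskeleton. Of 24 measured matrix genes 11 fell and none rose, against 3 to 5 falls without 1 of the 4 DMSO libraries and 0 with those 4 alone. Their median was -0.97, and their summed level was 1660.04 and 1599 TPM with depc and 842 and 787 TPM with poly I:C. FN1, the cell-binding glycoprotein fibronectin on chromosome 2 (215360440 to 215436073), had the largest fall of all genes called. It had 259.6 and 214 TPM with depc and 42.1 and 32.5 TPM with poly I:C, and fell by 2.64 ± 0.24 (SE, adjusted p = 0.00157). COL1A1, the main chain of type I collagen, had 64.6 and 70.8 TPM with depc and 15.9 and 17.7 TPM with poly I:C, and fell by 1.95 (adjusted p = 0.00144). COL5A1 fell by 1.81, HSPG2, the basement membrane proteoglycan perlecan, by 1.69 and COL18A1 by 1.39. LAMA5 and LAMB2, chains of laminin, fell by 1.14 and 1.14. SPARC, another matrix protein, had 275 and 199 TPM with depc and 309 and 214 TPM with poly I:C, overlapping groups that did not pass the test. COL1A1 is also among the fibroblast markers, whose sum was lower in both poly I:C libraries, while for LUM and DCN of that list the groups overlapped, and the part of such cells in the falls was not tested. Of 13 measured integrins and matrix receptors LRP1, ITGA5 and ITGA3 fell, by 1.47, 1.24 and 1.12, against 3.79% of all genes called lower. None of the 3 was called with median-of-ratios scaling or length correction, and 0 to 1 was called without 1 of the 4 DMSO libraries.

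The cytoskeleton list, like the matrix list, was chosen with earlier results of these data known, so its counts are description only. Of its 25 genes 14 fell and none rose, with a median of -1.09. Without 1 of the 4 DMSO libraries 2 to 9 fell, and with those 4 alone 0. NES, the intermediate filament nestin, had 57.0 and 52.95 TPM with depc and 11.3 and 12.7 TPM with poly I:C, and fell by 2.11 ± 0.19 (SE, adjusted p = 0.0017). FLNC and FLNA, filamins that cross-link actin, fell by 2.09 and 1.90. FLNA had 291 and 302 TPM with depc and 66.5 and 93.4 TPM with poly I:C. MYH9, the heavy chain of non-muscle myosin, had 222 and 218 TPM with depc and 52.0 and 66.2 TPM with poly I:C, and fell by 1.89 (adjusted p = 0.00108). PLEC, the linker plectin, fell by 1.85 and TLN1, which ties integrins to actin, by 1.40. In each of these genes every poly I:C library lay below every depc library. The same held in all 563 genes called lower and in 34.3% of the 14859 genes. Outside both lists the 12 largest falls held MAP1B, a microtubule-associated protein (-1.88), CPA4, a carboxypeptidase (-1.87), FAT1, a giant cadherin (-1.82), and CSPG4, a surface proteoglycan (-1.81). The calls of MAP1B, CPA4 and FAT1 were lost whichever 1 of the 4 DMSO libraries was left out.

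Of 15 measured keratins and junction genes 2 fell, and neither was called under any of the 4 other scalings or without any 1 of the 4 DMSO libraries. Of all genes 3.79% were called lower. KRT18 had 1009 and 1069 TPM with depc and 468 and 645 TPM with poly I:C, and fell by 0.92 (adjusted p = 0.0423). It overlaps KRT8, its filament partner, which had 1292 and 1425 TPM with depc and 630 and 1087 TPM with poly I:C and was not called (log2 fold change -0.71). JUP, plakoglobin of cell junctions, fell by 1.34 (adjusted p = 0.0299). None of the 8 measured genes of fluid secretion was called, including SLC12A2, the cotransporter that loads chloride, at a log2 fold change of -0.80. Among genes linked to Sjögren's syndrome, 6 of 10 were measured. TRIM21, the Ro52 autoantigen, had 14.1 and 13.8 TPM with depc and 47.3 and 55.2 TPM with poly I:C, and rose by 1.80 (adjusted p = 0.00207). SPTAN1, alpha-fodrin, fell by 1.37 (adjusted p = 0.00715) but was not called with upper-quartile or median-of-ratios scaling, with length correction or without 3 of the 4 DMSO libraries in turn, while RO60 and SSB, the Ro60 and La autoantigens, had log2 fold changes of -0.53 and 0.26 with overlapping groups.

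The falls ran with transcript length and with the choice of scaling. The median transcript length, weighted by TPM, was 4424 bases for the genes called lower, 1351 for those called higher and 2304 for those not called. When genes were ordered by length and cut into 10 equal groups, the median log2 fold change went from 0.06 in the shortest group to -0.54 in the longest, which begins at 5666 bases. The longest group held 185 of the 563 falls and 3 of the 132 rises. Across genes, which are not independent, Spearman's rho between the effect and length was -0.35, and between the effect and GC content, the percentage of G and C in the exons, -0.41. Genes called lower had a median GC content of 57.4%, against 48.1% in genes not called. For 1215 transcripts, coverage of exons on the 5′ side of the transcript's middle was divided by that of exons on the 3′ side. These transcripts had at least 2000 bases, 5 exons, 5 TPM and 80% of their gene's TPM. The median ratio was 1.03 and 0.982 with depc and 1.04 and 1.08 with poly I:C. It does not measure coverage at the ends themselves. After correction of each library for length 82 genes (0.552%) were called higher and 3 (0.0202%) lower, FN1, NES and CPA4. With correction for GC content and length together 4.27% were called higher and 4.64% lower. The part of length in the falls was not tested beyond these values.

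**Figure D4:**
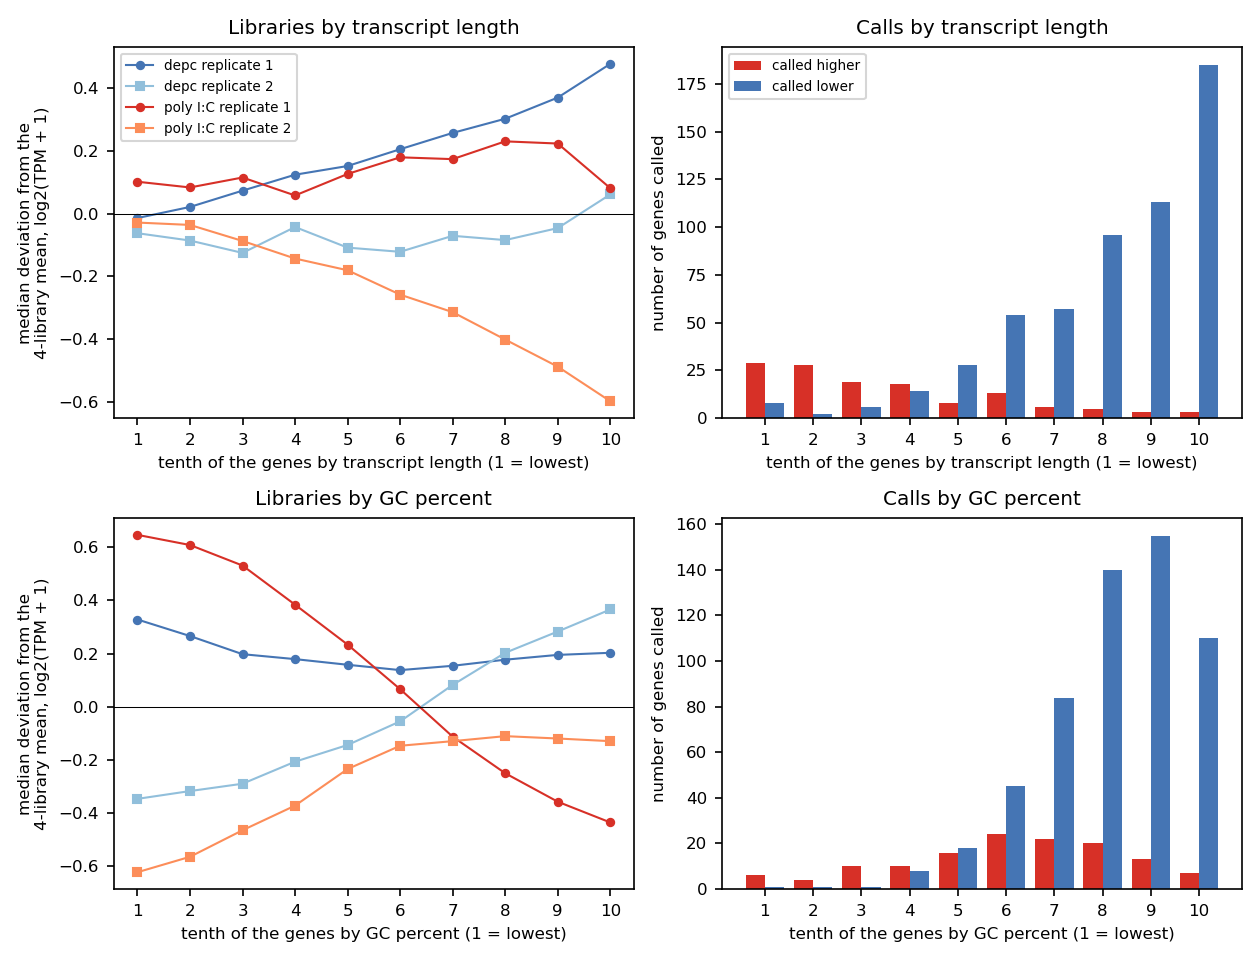
Left panels show, for 10 equal groups of genes by transcript length (top) and by GC content (bottom), the median deviation of each library from the mean of the 4 libraries on the log2(TPM + 1) scale, with blue lines for depc and red or orange for poly I:C. Right panels count the genes called higher (red) and lower (blue) in each group, with 185 falls among the longest transcripts.

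The balance of the calls changed with the scaling. Of the calls with TPM 19.0% were rises, against 70.4% with FPKM (88 higher, 0.592%, and 37 lower, 0.249%), 68.9% with upper-quartile scaling (93, 0.626%, and 42, 0.283%), 76.4% with median-of-ratios scaling (94, 0.633%, and 29, 0.195%) and 45.4% with estimated reads as CPM (108, 0.727%, and 130, 0.875%). Without mitochondrial genes 0.675% were called higher and 1.19% lower, and among protein-coding genes 0.908% and 2.06%. Of the 132 rises 56 were called under all 4 of these and 30 under none. Of the 563 falls 9 were called under all 4 and 435 under none. Among matrix genes 1 fell and among cytoskeleton genes 3 fell with median-of-ratios scaling, whereas 20 of the 32 antiviral effectors rose. The medians of matrix and cytoskeleton genes were then -0.83 and -0.94. With GC correction added 19 and 15 of them were called lower, as were 1436 of all 14859 genes. With length correction the medians were -0.58 and -0.64 with 1 call in each list, and with GC and length correction -0.43 and -0.53 with 10 and 12. The effectors had a median of 2.73 and 21 calls with length correction. The 22 promoters with the motif among the 40 available for the 56 rises called under all 4 are a share of 55.0%.

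**Figure D5:**
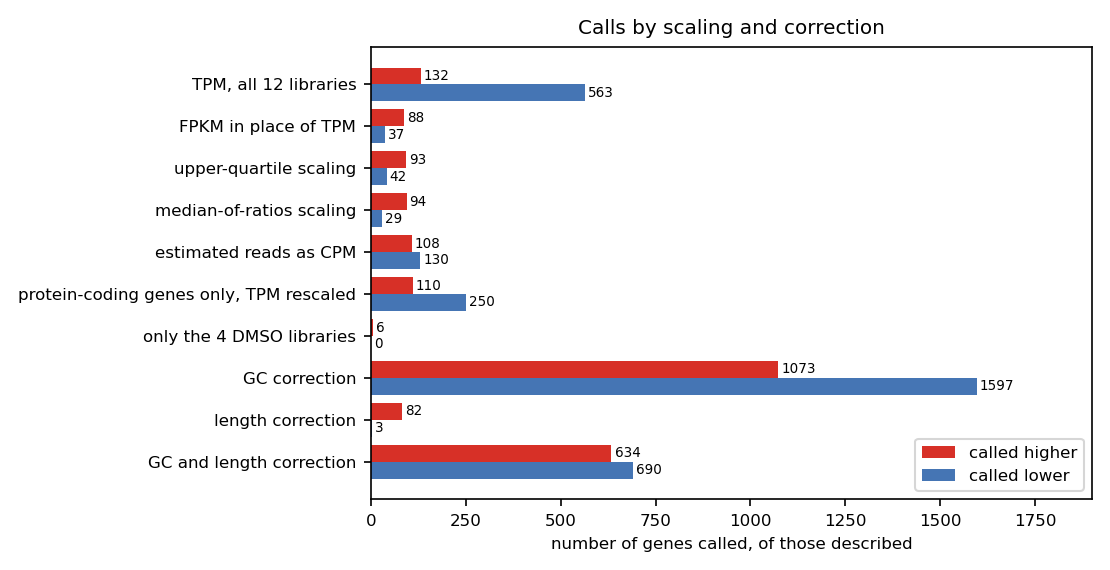
Bars count the genes called higher (red) and lower (blue) under each scaling of the libraries, library set or correction, starting from 0. Rises stay between 82 and 132 in the scalings of all 12 libraries and after length correction, falls range from 3 to 563 there, and GC correction raises them to 1073 and 1597.

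The spread between replicates ran with GC content. Across genes, rho of GC content with the difference of the first from the second replicate was -0.73 in depc and -0.81 in poly I:C. Among the 132 rises the first poly I:C library was the higher in 70 genes, of median GC content 48.3%, and the second in 62, of median 55.2%. IFIT3 (44.4% GC) and DDX58 (40.0%) were higher in the first library, and ISG15 (63.4%) and IFITM3 (60.6%) in the second. After correction of each library for GC content 1073 genes were called higher, 7.22% of the 14859, and 1597 lower, 10.7%. Under that correction 31 of 32 antiviral effectors, 11 of 11 PARP and nuclear body genes and 7 of 12 IRF and STAT factors rose. Of the matrix genes 20 of 24 then fell, and of the cytoskeleton genes 15 of 25.

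The number of calls rested on the libraries in the fit. With only the 4 DMSO libraries limma called 6 genes higher (0.0404%) and none lower (0.0%). These 6 are known as interferon-induced: IFI27, OAS1, OAS2, OASL, IFITM1 and MX1. Of them IFI27, OAS2 and OASL entered the description only through poly I:C. With GC correction the same 4 libraries gave 331 genes higher (2.23%) and 313 lower (2.11%), with 110 of the 132 rises and 169 of the 563 falls among them, and with median-of-ratios scaling 50 higher and 4 lower. At an unadjusted p under 0.05 the uncorrected fit of 4 had 2225 genes, and the fit of all libraries 3229. Leaving out 1 of the 4 DMSO libraries left 19 to 37 genes higher and 5 to 43 lower, and leaving out 1 of the libraries given 2-CM left at most 143 calls, while leaving out 1 of those given RES left 524 to 875. Rises called without each of the 12 libraries in turn numbered 19, and such falls 5, which were FN1, NES, COL1A1, MYH9 and COL5A1. COL1A1, MYH9 and COL5A1 were not called with median-of-ratios scaling or with length correction, while FN1 and NES were called with each. With length correction the limma adjusted p of NES was 0.0499, just under the threshold, against 0.00222 for FN1. For a single gene, 2 against 2 libraries allow no exact two-sided permutation p below 0.333.

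The calls were set beside the authors' deposited table, which calls 278 of 22224 genes (1.25%) at an adjusted p under 0.05. The direction of its fold changes was read from the values as poly I:C over depc. Of the 132 rises 79 are among the 167 higher in the authors' deposited table, and of the 563 falls 41 are among the 111 lower in the authors' deposited table. FN1 has a log2 fold change of -2.35 in the authors' deposited table, with an adjusted p of 9.64e-08. SPTAN1, called lower here, is not called in the authors' deposited table (adjusted p = 0.135), as holds for most of the 563 falls. Among these are TYK2, KRT18 and POLR2A, with adjusted p of 0.551, 0.661 and 0.208 there. Of the rises named above, NFKBIA and APOL2 are not called there either, with adjusted p of 0.0934 and 0.191. PARP9, IFIT5, GBP1, CXCL11 and B2M, not called here, are called higher in the authors' deposited table, with adjusted p from 4.61e-08 for PARP9 to 0.00451 for B2M.

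Lists of cell division and metabolism are given beside the 4.68% of all genes called. Of 20 mitosis genes MKI67 fell by 1.13 and of 20 replication genes POLE, a DNA polymerase, fell by 0.96, with no rise in either list, and no call was made among 15 p53 targets. In cholesterol synthesis 3 of 17 measured genes fell, among them DHCR7 by 1.47 and LSS by 0.96. Of 25 glycolysis and hypoxia genes NDRG1, a hypoxia-induced gene, rose by 1.73 and ALDOC by 1.09, while GPI, HK1 and PFKP, enzymes of early glycolysis, fell by 1.01, 0.92 and 0.75. In the integrated stress list PHGDH, which opens serine synthesis, fell by 1.03 (adjusted p = 0.0499), the only 1 of 18. None of these falls, nor the rise of ALDOC, was called with median-of-ratios scaling, and no gene of these lists was called when 1 of the 4 DMSO libraries was left out or after length correction.

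The series concerns double-stranded RNA of mitochondria, which gene levels quantified with no strand option do not measure. None of the mitochondrially encoded mRNAs was called. The 13 genes had log2 fold changes from -0.50 for MT-ND5 to 0.41 for MT-CO3, with a median of 0.08. MT-ND6, the only mRNA from the light strand, had 4249 and 5071 TPM with depc and 3068 and 3550.2 TPM with poly I:C, a log2 fold change of -0.49 (adjusted p = 0.107). No strand option is recorded for the quantification, so reads of MT-ND6 and of heavy-strand RNA antisense to it cannot be told apart. The groups did not overlap in 10 of the 13 genes, against 45.8% of all genes described. None of 13 genes of mitochondrial RNA turnover was called either. PNPT1, a ribonuclease that clears mitochondrial double-stranded RNA, had 11.6 and 6.20 TPM with depc and 38.1 and 12.2 TPM with poly I:C (log2 fold change 1.25, adjusted p = 0.36), and POLRMT, the mitochondrial RNA polymerase, had 34.8 and 41.5 TPM with depc and 15.2 and 22.5 TPM with poly I:C (-0.999, adjusted p = 0.102).

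Among genes often taken as steady, of 78 cytosolic ribosomal protein genes 5 rose, RPS27, RPL27, RPS29, RPL38 and RPS13, by 0.54 to 1.28, with a list median of 0.25, and none of them was called with median-of-ratios scaling. Of all genes 0.888% were called higher and 3.79% lower. Of 29 reference genes POLR2A, GPI and SDHA fell, by 1.29, 1.01 and 0.71, none of them called with median-of-ratios scaling, and the list median was 0.15. POLR2A, the large subunit of RNA polymerase II, had 34.9 and 34.8 TPM with depc and 12.6 and 14.9 TPM with poly I:C, and its mean transcript length of 6499.7 bases lies in the longest of the 10 length groups.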

How the data were processed

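Gene expression was measured by RNA-seq in 12 libraries of NS-SV-AC cells, of which the 4 given DMSO are described. Per the file headers, StringTie 2.0.4 estimated annotated transcripts of GENCODE 32 with no strand option set. The submitters' processing notes name bcl2fastq 2.20, HISAT2 2.1.0, StringTie, DESeq2 and the build hg38, and the authors' step that used DESeq2 is not stated there. The deposited files give coverage, FPKM and TPM per transcript, as the authors computed them, and a comparison table of the authors holds a mean, log2 fold changes with their SE, a test score and p-values.

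Gene TPM was the sum of the TPM of its transcripts. Estimated reads were coverage times length divided by read length. Genes that reached a TPM of 1 in 2 or more of 12 libraries were fitted on log2(TPM + 1), with a pseudocount of 1, in limma 3.58.1 (R 4.3.3) with trended variances, 6 group means and 6 residual degrees of freedom, with Benjamini-Hochberg adjustment. The fit was tested on simulated data, where most changes of 1 on the log2 scale were missed. Genes named in the text were the 12 largest called changes in each direction whose higher group had a mean of at least 5 TPM and whose groups did not overlap, and members of 32 gene lists. The members and lists were chosen with earlier results of these data known. GC content came from merged exons of the deposited annotation, GENCODE 32, and biotypes came from GENCODE 44. Alternatives changed the scaling, filters, pseudocount, libraries, replicate block, and GC and length corrections. Most list members are given only in counts, and some are not reported here.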

Additional observations from a re-analysis of the deposited data

How the results depend on the processing

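The number of genes called was 695. It became 125 with FPKM, 135 with upper-quartile scaling, 123 with median-of-ratios scaling, 238 with estimated reads as CPM, 276 without mitochondrial genes, 6 with only the 4 DMSO libraries, 2670 with GC correction and 444 with a log2 fold change of 1 or more required. Leaving out 1 of the 12 libraries gave 25 to 875 calls. Alternatives chosen after seeing the data gave 85 with length correction, 1324 with GC and length correction, 54 with median-of-ratios scaling and 644 with GC correction of the 4 DMSO libraries alone, 2652 with median-of-ratios scaling and GC correction, and 360 among protein-coding genes. AHNAK2 went from -0.86 to 0.083 with length correction and 0.45 with GC and length correction. The cause was not tested. Of 105 called genes of the lists and the named changes, 50 of 58 rises and 15 of 47 falls kept their call with FPKM, and 43 and 7 with median-of-ratios scaling.

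Replicate numbers are shared by the groups, but the labels do not say that they pair libraries, and each comparison has only 2 pairs. With the replicate block 346 genes were called over 12 libraries, 3260 over the 4 DMSO libraries and 2499 with GC correction. Over all genes, whose values are not independent, the replicate deviations of depc and poly I:C correlated with a Pearson r of 0.68.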

Other observations

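Some genes outside every list also rose, and the 3 named here were chosen after their values were seen. HSH2D, an adaptor of lymphocyte signalling, was listed at 0 in both depc libraries and had 5.76 and 7.36 TPM with poly I:C. It entered the description only through poly I:C. BATF2, a transcription factor of the AP-1 superfamily, had 1.57 and 1.35 TPM with depc and 13.3 and 18.8 TPM with poly I:C, and rose by 2.78. SLPI, a protease inhibitor of mucosal secretions, had 3.79 and 3.49 TPM with depc and 17.7 and 20.0 TPM with poly I:C, and rose by 2.09. In all 3 genes both poly I:C libraries lay above both depc libraries, a pattern found upward in 11.5% of the 14859 genes.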
